A study of Danio rerio with 16 samples.

Results

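The genes described here are the chaperones and co-chaperones of zebrafish (Danio rerio) larvae other than Hsp90: the Hsp70, Hsp110 and small heat shock proteins, the DnaJ (Hsp40) proteins, the CCT and mitochondrial chaperonins, the BAG proteins, the Hsp90 co-chaperones stip1 and ahsa1, and the heat shock factors. They were taken by gene name alone, which gave 103 of the 26183 genes in the joined count tables. 3 of the 103 (hspbap1, hsf2bp and hspbp1) matched the name rule but were assigned to none of these families. Larvae had 7 days of exposure to PFBA (perfluorobutanoic acid, a perfluorinated acid with a short carbon chain) or solvent and were 7 days old when their poly(A) RNA was sequenced. The 16 libraries were 4 DMSO controls, 3 at 0.1 µg/L, 4 at 1 µg/L and 5 at 10 µg/L. The labels give neither a strain or genotype nor the number of fish per library. They do not say that libraries came from separate clutches or dishes, so p-values measure the spread between these libraries only. In whole larvae, fewer cells of a type and less RNA per cell cannot be told apart.

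When proteins unfold, heat shock factors bind DNA and switch on chaperone genes. Hsp70 proteins hold exposed stretches of a client protein in a cycle driven by ATP: DnaJ proteins deliver the client and speed hydrolysis, and Hsp110 and BAG proteins release the nucleotide. Small heat shock proteins keep unfolding clients from aggregating and are rich in muscle, heart and lens. CCT is a ring of related subunits that folds actin and tubulin, and hspd1 with hspe1 form the corresponding chamber of mitochondria.

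Library totals ran from 9708464 to 13862232 counts. Libraries are named by the number in their deposited column: 1, 3, 4 and 5 in the control, 1 to 3 at 0.1 µg/L, 1, 2, 4 and 5 at 1 µg/L and 1 to 5 at 10 µg/L. Levels are in CPM, read counts scaled to a library of 1000000, on library sizes scaled by the trimmed mean of M values (TMM). 2 of the 3 libraries at 0.1 µg/L, 1 and 2, differed from the other 14. On the first principal component, with 38.85% of the variance, they lay at 174.7 and 101.2, against -43.8 to 9.01 elsewhere. Their TMM factors were 0.581 and 0.742, against 0.928 to 1.14. The summed level of the 7 skeletal muscle markers was 85822 and 55334 CPM there and 3618 to 34515 CPM elsewhere. The sum of 5 liver markers was 2911 and 2306 CPM, against 112 to 1383 CPM, and that of 7 lens markers 5976 and 3732 CPM, against 1034 to 3597 CPM. Heart markers summed to 54.7 and 46.8 CPM, against 9.44 to 30.7 CPM. For intestine the sums were 299.6 and 213 CPM, against 35.4 to 198 CPM, and for erythroid markers 208 and 128 CPM, against 21.7 to 98.3 CPM. Photoreceptor markers, at 9285 and 8159 CPM, lay within the 5464 to 12719 CPM of the other libraries. Some of the counts, medians and tests at 0.1 µg/L that rest on these libraries are also given without them. The markers of muscle, lens, liver, intestine and photoreceptors were measured throughout, except that mylpfa and 2 lct records were at 0 in some libraries. Of the erythroid markers, hbba1 and alas2 stayed under 1 CPM.

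Per kilobase of gene length, the CCT chaperonin was the most abundant of these gene groups in the control. The longer of 2 cct2 records stood at 245 ± 28.7 CPM per kb (SD, n = 4), cct4 at 234 ± 46.1, cct5 at 132 ± 26.8, tcp1 at 126 ± 24.6 and cct7 at 124 ± 30.0. The other CCT records were cct3 at 98.4 ± 26.8 CPM per kb, cct6a at 87.1 ± 16.0, cct8 at 47.5 ± 6.17 and the shorter cct2 record at 27.2 ± 6.26. Outside CCT the levels were led by dnajc5ab, a synaptic vesicle DnaJ protein, at 52.8 ± 5.44 CPM per kb, the class A protein dnaja2b at 45.0 ± 3.65 and the constitutive cytosolic Hsp70 hspa8 at 42.9 ± 6.58. The transcription factor hsf2 stood at 39.7 ± 5.14 CPM per kb, whereas hsf1, the main heat-responsive factor, stood at 2.75 ± 0.309. Values per kb rest on the deposited gene length. Before that division hspa8 had 254 to 353 CPM in the control and hsf2 77.3 to 104 CPM. The ER Hsp70 hspa5 stood at 32.1 ± 5.87 CPM per kb and the mitochondrial hspa9 at 25.7 ± 2.18. The neighbouring genes hsp70.1, hsp70.2 and hsp70.3, which heat induces, stood at 2.70 ± 1.81, 6.41 ± 2.73 and 5.21 ± 2.01 CPM per kb. The median over the 103 genes was 4.65 CPM per kb, against 4.01 over all 19092 genes tested. The 103 include 6 genes with too few reads to be tested, so these medians are over unlike sets.

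**Figure D1:**
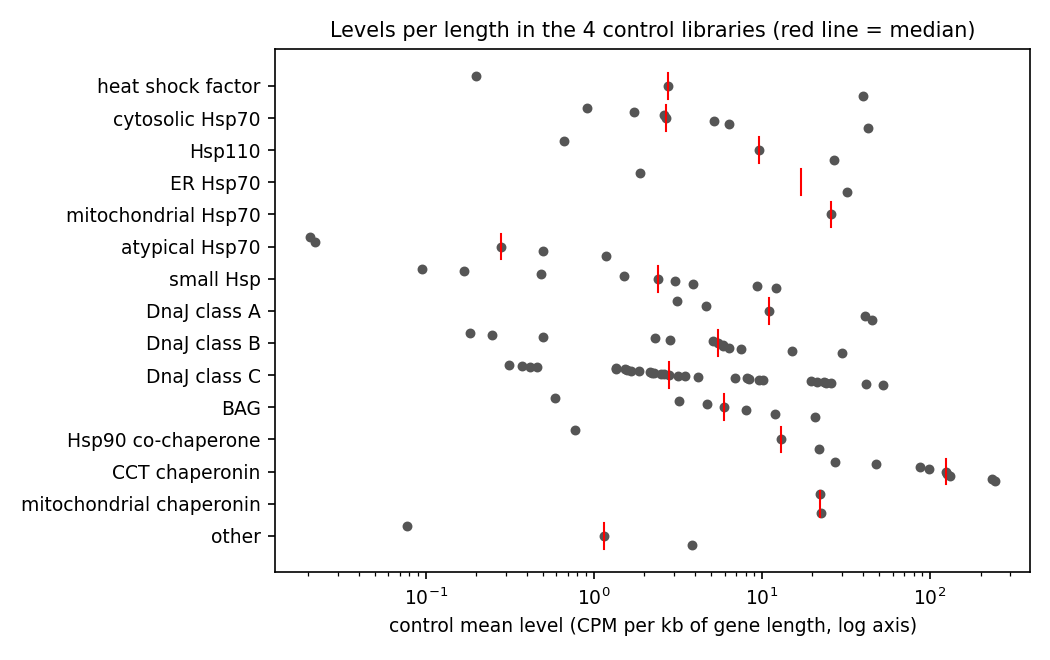
Control levels per length by role. Each point is 1 gene, the x axis is its mean level over the 4 control libraries in CPM per kb of gene length on a log scale, and the red line is the median of the role. The CCT subunits lie farthest right, with a median of 124 CPM per kb.

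97 of the 103 genes had enough reads to be tested. The 6 others were hsf2bp, dnajb5, dnajc5b, hspa12a.1, hspa12a.2 and hspb9, with 3 to 62 reads in all 16 libraries together. Tests were edgeR's quasi-likelihood F test fitted on the whole table, and called means a Benjamini-Hochberg adjusted p below 0.05. At 10 µg/L, 1 of the 97 genes was called, hsf2, which fell. Of all genes tested, 0.225% were called there, and 0.141% were called lower. 12 of the 97 had an unadjusted p below 0.05, against 8.23% of all genes. At 1 µg/L, 0 genes of the group were called, against 0.0681% of all genes, and 3 had an unadjusted p below 0.05, against 4.89%. At 0.1 µg/L, 0 were called, against 0% of all genes, and 26 had an unadjusted p below 0.05, against 21.8%. Of the 97 genes, 24 (24.7%) had such a p and a higher level, against 12.2% of all genes. Without libraries 1 and 2, 2 of the 97 had an unadjusted p below 0.05 at 0.1 µg/L, both lower, against 1.39% of all genes. DESeq2 called 3 genes at 10 µg/L (hsf2, hspb6 and hspa4a), against 1.3% of all genes. It called 0 at 1 µg/L, against 0.32%, and 13 at 0.1 µg/L, against 7.5%. limma-voom called 1, 0 and 0, against 0.32%, 0.115% and 0% of all genes. Over the 4 groups, 6 genes were called (hsf2, hspb6, hspa4a, hspa5, dnajc2 and dnajc8), against 2.34% of all genes. In the trend over dose steps 1 gene was called, hsf2, which fell, against 0.288% of all genes. DESeq2 called 20 over the 4 groups and 4 in the trend, against 12.5% and 2.4% of all genes, and limma-voom 3 and 1, against 1.21% and 0.299%. Without libraries 1 and 2 at 0.1 µg/L, where the remaining library of that dose is assumed to vary like the other groups, 2 genes were called at 10 µg/L, 0 at 1 µg/L, 0 over the 4 groups and 3 in the trend, against 0.392%, 0.0538%, 0.176% and 0.871% of all genes. In that fit 20 of the 97 had an unadjusted p below 0.05 at 10 µg/L, against 11.3% of all genes, and 4 at 1 µg/L, against 7.54%.

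Among the transcription factors, hsf2 was the member with the clearest fall. In zebrafish hsf2 (ENSDARG00000053097; GRCz11 chromosome 20, 40475576 to 40487284, minus strand) encodes heat shock factor 2, which in mammals acts in development and modulates hsf1. Its level was 83.6, 77.3, 90.9 and 104 CPM in control libraries 1, 3, 4 and 5. At 10 µg/L it was 33.3, 32.4, 40.9, 38.4 and 39.3 CPM. All 5 exposed libraries lay below the lowest control. The level was 2.41-fold lower at 10 µg/L, a log2 fold change of -1.27 ± 0.229 (SE), with an adjusted p of 0.0226 in edgeR's quasi-likelihood test. Of all genes tested, 2.83% had every library at 10 µg/L below every control. At 1 µg/L, hsf2 was 44.3, 42.8 and 44.1 CPM in libraries 1, 2 and 4 and 102 CPM in library 5. The first 3 of these lay near the libraries at 10 µg/L and library 5 lay within the control range. The log2 fold change at 1 µg/L was -0.61 ± 0.242, with an adjusted p of 0.954 in edgeR, and without library 5 it was -1.03 with an adjusted p of 0.00651. At 0.1 µg/L hsf2 was 127, 92.7 and 83.3 CPM, with a log2 fold change of 0.18 ± 0.259 that became -0.07 without libraries 1 and 2 and -0.31 when libraries were scaled by total count alone. Over the 4 groups its adjusted p in edgeR was 0.0154, and its slope was -0.47 ± 0.0886 log2 units per dose step with an adjusted p of 0.0257. The call at 10 µg/L held in 15 of the 24 alternatives run and was lost when any 1 of the 4 controls, or library 1, 2, 4 or 5 at 10 µg/L, was left out, with adjusted p of 0.0579 to 0.0968 in edgeR and log2 fold changes of -1.33 to -1.19.

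**Figure D2:**
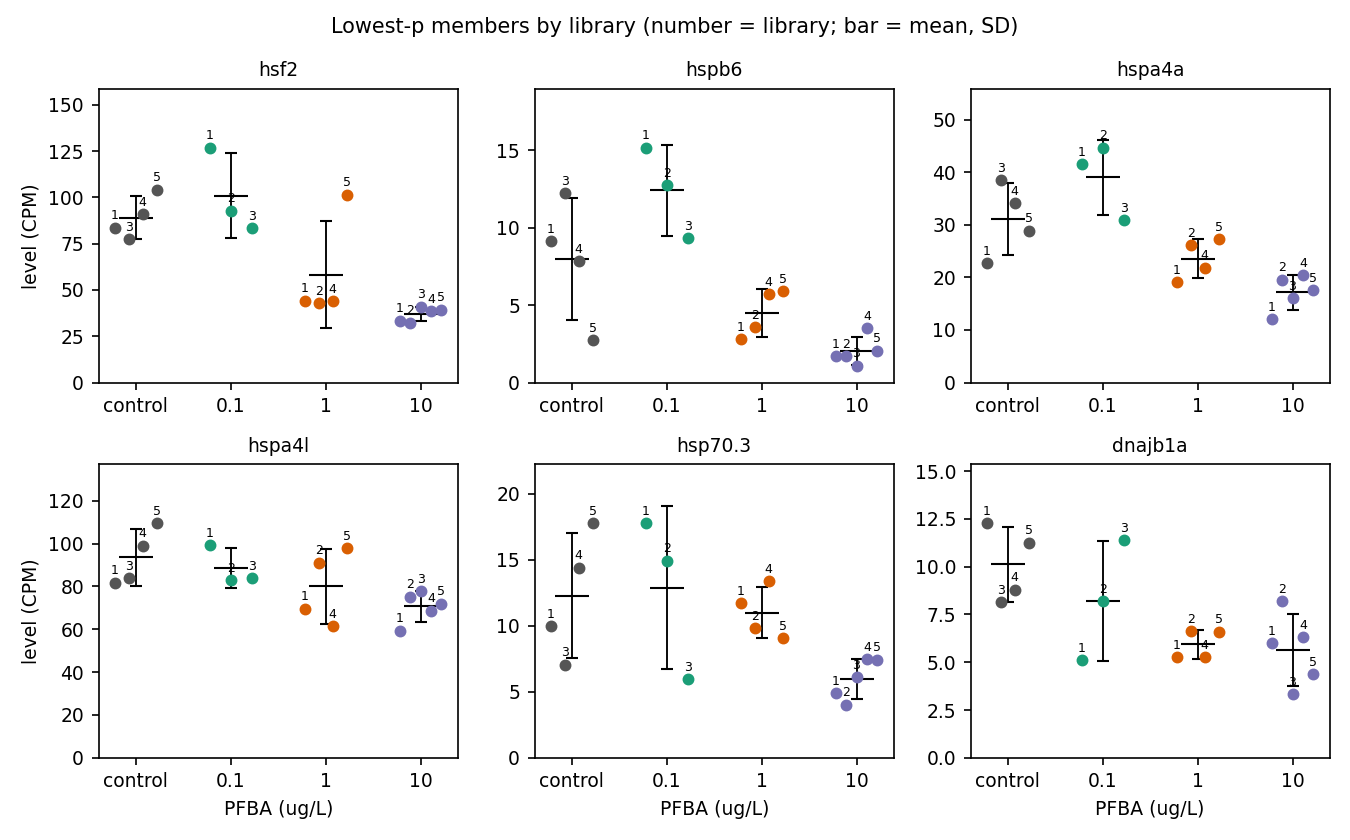
Levels of the factor hsf2, the small heat shock protein hspb6, the Hsp110 proteins hspa4a and hspa4l, hsp70.3 and dnajb1a by library. Each point is 1 library with its number, the x axis is the PFBA dose, the y axis is the level in CPM from 0, and the black bars are the mean and SD of a group. The 5 points of hsf2 at 10 µg/L lie between 32.4 and 40.9 CPM, and library 5 at 1 µg/L lies at 102 CPM.

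The libraries low in hsf2 were also low in circadian clock genes. The clock repressor nr1d1 was at 547 to 762 CPM in the control, at 546 to 657 CPM at 0.1 µg/L and at 29.9 to 52.3 CPM at 10 µg/L. At 1 µg/L it was 24.3, 26.5 and 19.0 CPM in libraries 1, 2 and 4 and 617 CPM in library 5. The summed level of the 4 clock markers found (nr1d1, per1a, dbpb and arntl1a) was 744 to 1009 CPM in the control, 730.3 to 864 CPM at 0.1 µg/L, 120 to 181 CPM at 10 µg/L, 93.7 to 125 CPM in libraries 1, 2 and 4 at 1 µg/L and 852 CPM in library 5. Of the 4, arntl1a ran the other way, with 27.7 to 42.9 CPM in the control and 63.9 to 99.5 CPM at 10 µg/L. The sum of 3 early response genes, fosab, egr1 and nr4a1, was 184 to 244 CPM in the control and 73.2 to 92.5 CPM at 10 µg/L. At 1 µg/L that sum was 45.0, 51.7 and 45.0 CPM in libraries 1, 2 and 4 and 108.5 CPM in library 5, which lay below every control. Of the 3, egr1 alone overlapped the control at 10 µg/L, with 31.3 to 43.0 CPM in the control and 22.5 to 34.7 CPM at that dose. per1a was 65.3 to 87.0 CPM in the control and 15.9, 22.9 and 80.1 CPM at 0.1 µg/L. In libraries 1 and 2 of that dose nr1d1 was 546 and 558 CPM, dbpb 139 and 110 CPM and arntl1a 32.3 and 39.5 CPM. hsf2 was 127 and 92.7 CPM in these 2 libraries. The labels give no time of sampling, and the part of clock time in the hsf2 result was not tested.

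**Figure D3:**
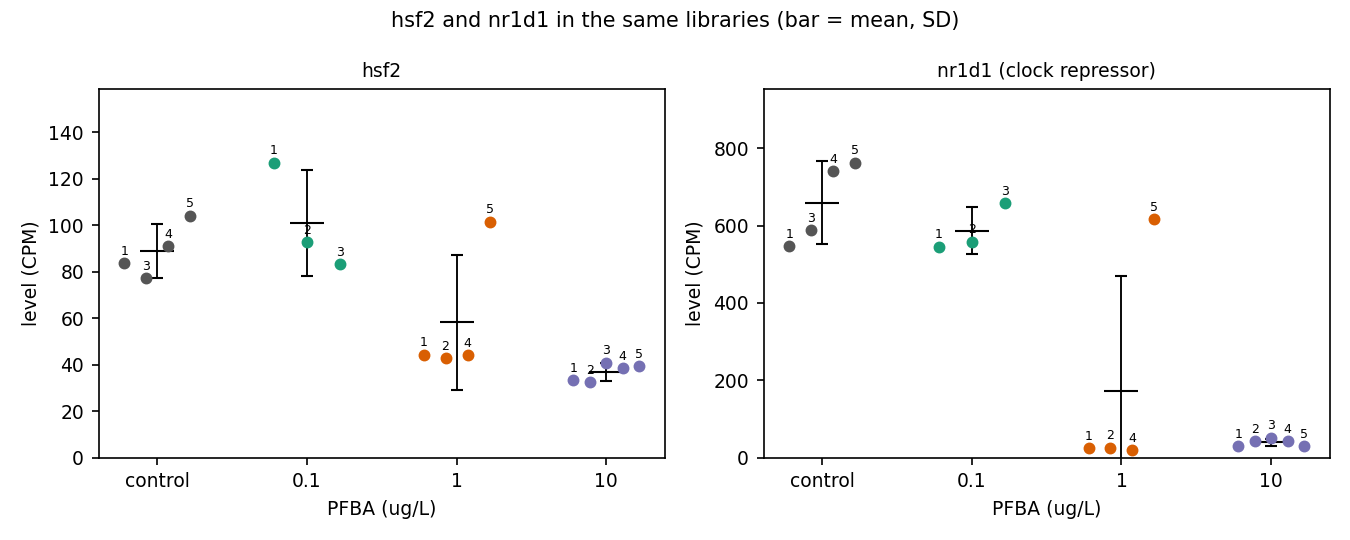
hsf2 and the clock repressor nr1d1 in the same 16 libraries. Points are libraries with their numbers, the x axis is the PFBA dose, the y axes are levels in CPM from 0, and the black bars are the mean and SD of a group. Library 5 at 1 µg/L is high in both panels, at 102 CPM for hsf2 and 617 CPM for nr1d1.

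The other heat shock factors were not called. The level of hsf1 was 9.64 to 12.1 CPM in the control and 9.35 to 17.7 CPM at 10 µg/L, so the groups overlapped. It was lowest in libraries 1 and 2 at 0.1 µg/L, with 0.870 and 3.01 CPM, while library 3 had 12.6 CPM. hsf4, a lens factor in mammals, stayed at or below 1.29 CPM in every library.

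The 3 Hsp110 genes of the name rule, nucleotide exchange partners of Hsp70, had lower levels at 10 µg/L. Their log2 fold changes were -1.28 to -0.41, and 0 of the 3 were called. The name rule left out hsph1 and hyou1, with log2 fold changes at 10 µg/L of -0.52 ± 0.348 and 0.19 ± 0.333. The level of hspa4a was 22.8, 38.6, 34.1 and 28.9 CPM in the control and 12.1, 19.6, 16.0, 20.4 and 17.6 CPM at 10 µg/L. The exposed libraries all lay below the lowest control. Its log2 fold change was -0.86 ± 0.195, with an adjusted p of 0.0779 at 10 µg/L and 0.0252 over the 4 groups in edgeR, the latter 0.205 without libraries 1 and 2 at 0.1 µg/L. At 1 µg/L hspa4a lay between, at 19.2, 26.2, 21.9 and 27.3 CPM, and overlapped the control. hspa4l was 81.7, 83.9, 99.0 and 109.6 CPM in the control and 59.3, 75.2, 77.9, 68.7 and 71.9 CPM at 10 µg/L, again without overlap. Its log2 fold change was -0.41 ± 0.152, with an adjusted p of 0.423 in edgeR. The third gene, hspa4b, was at most 3.98 CPM in any library. The summed level of the 3 Hsp110 genes was 105 to 141 CPM in the control and 72.1 to 95.6 CPM at 10 µg/L.

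The 7 cytosolic Hsp70 genes all had log2 fold changes below 0 at 10 µg/L, from -1.04 to -0.15 with a median of -0.74, and 0 were called. Over all genes tested the median was -0.02 and 52.8% had a log2 fold change below 0. The stress-inducible genes hsp70.1, hsp70.2 and hsp70.3 lie close together on chromosome 3 between 26112780 and 26127091. hsp70.1 is on the minus strand and hsp70.3 on the plus strand. Their sequences were not compared here. If they are near-identical copies, the split of reads among them is uncertain, so their values are not taken as 3 independent measurements. hsp70.3 was 9.96, 7.04, 14.4 and 17.8 CPM in the control and 4.91, 4.03, 6.10, 7.47 and 7.42 CPM at 10 µg/L. Libraries 4 and 5 at 10 µg/L were above control library 3, so the groups overlapped. Its log2 fold change was -1.04 ± 0.321, with an adjusted p of 0.271 in edgeR. hsp70.1 was 2.22 to 12.0 CPM in the control and 1.86 to 4.92 CPM at 10 µg/L, and hsp70l, another heat-induced Hsp70, was 3.04 to 10.1 and 1.42 to 5.59 CPM. The control libraries differed among themselves: libraries 1 and 3 were the lower and libraries 4 and 5 the higher in hsp70.2, hsp70.3 and hsp70l. hspa8b was 4.63, 4.97, 5.47 and 4.98 CPM in the control and 2.56, 3.95, 1.77, 4.23 and 1.91 CPM at 10 µg/L, without overlap. The log2 fold change was -0.80 ± 0.326, with an adjusted p of 0.494 in edgeR. The constitutive hspa8 carried most of the cytosolic Hsp70 reads, with 254 to 353 CPM in the control and 187 to 370.1 CPM at 10 µg/L. The median log2 fold change of the 7 genes was -0.16 at 1 µg/L and 0.17 at 0.1 µg/L. Without libraries 1 and 2 the latter was -1.0047, which rests on library 3 alone. In library 3 at 0.1 µg/L hsp70.2, hsp70.3, hsp70l, hspa8b and hspa8 were 7.15, 5.94, 2.93, 4.05 and 233 CPM, below every control. There hsp70.1 and hspa1b, at 2.67 and 1.64 CPM, lay within the control range. Levels below the controls were therefore not confined to 10 µg/L.

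Among the organelle Hsp70 genes, hspa9, the mitochondrial Hsp70, was 131, 106, 121 and 121 CPM in the control and 89.2 to 114 CPM at 10 µg/L, with a log2 fold change of -0.28 ± 0.114 and an adjusted p of 0.493 in edgeR. hspa5 (BiP), the main Hsp70 of the endoplasmic reticulum and a target of the unfolded protein response, was 69.9, 94.9, 72.0 and 63.5 CPM in the control. It was 173, 137 and 83.4 CPM at 0.1 µg/L, 69.1 to 93.8 CPM at 1 µg/L and 46.8 to 75.9 CPM at 10 µg/L. Libraries 1 and 2 at 0.1 µg/L were above every other library. The adjusted p of hspa5 over the 4 groups was 0.0412 in edgeR and 0.767 without those 2 libraries. Its log2 fold change at 10 µg/L was -0.32 ± 0.202, with an adjusted p of 0.753. The 3 atypical Hsp70 genes tested had low levels, with a sum over all 5 genes of 3.32 to 10.2 CPM.

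**Figure D4:**
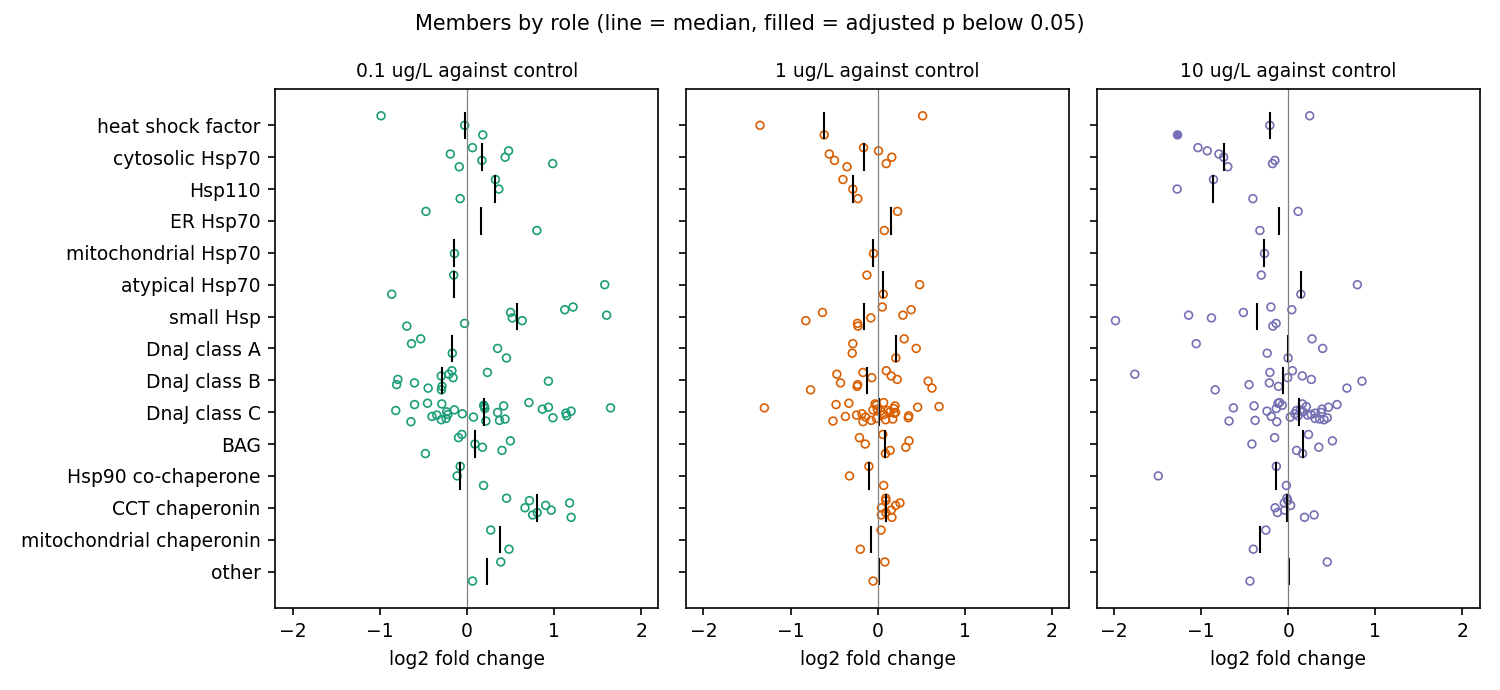
Log2 fold changes of the 97 tested genes by role at each dose. Each point is 1 gene, the x axis is its log2 fold change against the 4 controls, the black line is the median of the role, and filled points had an adjusted p below 0.05. The 7 cytosolic Hsp70 and 3 Hsp110 genes lie left of 0 at 10 µg/L, the 9 CCT records lie right of 0 at 0.1 µg/L, and hsf2 at 10 µg/L is the 1 filled point.

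Of the small heat shock proteins, hspb6 had the largest difference at 10 µg/L. hspb6 (Hsp20), which muscle and heart express in mammals, was 9.11, 12.2, 7.82 and 2.73 CPM in the control and 1.71, 1.70, 1.08, 3.51 and 2.05 CPM at 10 µg/L. Library 4 at 10 µg/L was above control library 5, and the groups overlapped by those 2 libraries. Its log2 fold change was -1.98 ± 0.401, 3.95-fold lower, with an adjusted p of 0.0505 in edgeR. It was called at 10 µg/L in 9 of the 24 alternatives run, and its adjusted p there ranged from 0.000548 to 0.193. Over the 4 groups its adjusted p was 0.0183 in edgeR, and 0.155 without libraries 1 and 2 at 0.1 µg/L. At 1 µg/L hspb6 was 2.79, 3.59, 5.73 and 5.89 CPM, within the control range. At 0.1 µg/L it was 15.2, 12.8 and 9.30 CPM.

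Skeletal muscle marker sums also differed among the libraries. The 7 skeletal muscle markers summed to 21258, 27506, 12205 and 4987 CPM in control libraries 1, 3, 4 and 5, and hspb6 was also highest in library 3 and lowest in library 5 among the controls. At 10 µg/L they summed to 18062, 7552, 3618, 21788 and 14758 CPM. In libraries 1 to 5 at 10 µg/L hspb6 was 1.71, 1.70, 1.08, 3.51 and 2.05 CPM. At 1 µg/L the muscle markers summed to 20874, 22940, 34515 and 9596 CPM in libraries 1, 2, 4 and 5. hspb6 was 2.79, 3.59, 5.73 and 5.89 CPM in these libraries, highest where the muscle sum was lowest. The 4 heart markers found summed to 11.7 to 30.7 CPM in the control and 9.44 to 21.8 CPM at 10 µg/L. vmhc was not matched. The part of muscle content in the hspb6 result was not tested.

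Like hspb6, the other 7 small heat shock genes tested were not called at any dose in the edgeR fit of all 16 libraries. hspb1 was 4.34 to 6.30 CPM in the control and 15.8, 11.7 and 5.94 CPM at 0.1 µg/L. hspb11, a small heat shock protein by its deposited description, was 3.37 to 16.9 CPM in the control and 34.4, 21.5 and 12.7 CPM at 0.1 µg/L. In both genes libraries 1 and 2 were above library 3. hspb15 varied little, with 16.4 to 17.4 CPM in the control and 14.0 to 18.0 CPM at 10 µg/L. The median log2 fold change of the 8 genes was -0.36 at 10 µg/L and 0.58 at 0.1 µg/L, the latter 0.23 without libraries 1 and 2. The name rule left out cryaa, a small heat shock protein counted here among the lens markers. Its log2 fold change at 10 µg/L was in the other direction, 0.77 ± 0.266, with an adjusted p of 0.359 in edgeR.

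The DnaJ proteins, the largest group, showed no common direction at 10 µg/L. The medians at 10 µg/L were 0.00 for 5 class A genes, -0.06 for 12 class B genes and 0.13 for 30 class C genes, and 0 were called. At 0.1 µg/L the medians were -0.17, -0.29 and 0.20. There 3 of the 5 class A, 10 of the 12 class B and 13 of the 30 class C genes were below 0. Without libraries 1 and 2 the medians at 0.1 µg/L were 0.02, -0.04 and -0.03. dnajb1a, the inducible partner of cytosolic Hsp70 in the heat shock response, was 12.3, 8.16, 8.79 and 11.2 CPM in the control. It was 5.27, 6.61, 5.25 and 6.60 CPM at 1 µg/L and 5.98, 8.21, 3.34, 6.30 and 4.38 CPM at 10 µg/L. The libraries at 1 µg/L lay below every control, and at 10 µg/L library 2 alone reached the control range. Its log2 fold changes were -0.77 ± 0.296 at 1 µg/L and -0.84 ± 0.278 at 10 µg/L, with adjusted p of 0.949 and 0.327 in edgeR. The class A protein dnaja1 had a log2 fold change of -1.06 ± 0.425 at 10 µg/L, with an adjusted p of 0.485 and 0.885 to 5.65 CPM, against 5.47 to 10.2 CPM in the control.

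2 DnaJ genes had an unadjusted p below 0.05 in the other direction at 10 µg/L. dnajc7, which in mammals binds both Hsp70 and Hsp90, was 104 to 119.6 CPM in the control and 138, 139.5, 146, 175 and 144 CPM at 10 µg/L. All 5 exposed libraries lay above the highest control, and so did the 4 at 1 µg/L, with 123 to 143 CPM. Its log2 fold change at 10 µg/L was 0.38 ± 0.141, with an adjusted p of 0.423 in edgeR. dnajb12b, whose human relative is a DnaJ protein of the endoplasmic reticulum membrane, was 13.4 to 19.9 CPM in the control and 17.7 to 31.9 CPM at 10 µg/L. This was a log2 fold change of 0.67 ± 0.273, with an adjusted p of 0.488 in edgeR. At 1 µg/L the log2 fold change of dnajb12b was 0.63, with an adjusted p of 0.998 in edgeR. In all, 5 of the 97 genes had every library at 10 µg/L below every control (hsf2, hspa4a, hspa4l, hspa8b and dnajb9b), against 2.83% of all genes. 4 had every library above (dnajc7, dnaja2b, dnajc16l and dnajc12), against 2.32% of all genes. Levels of dnajb9b were near the level of 3 counts, with 0.297 to 0.849 CPM in the control and 0 to 0.232 CPM at 10 µg/L. At 1 µg/L 2 genes had every library below every control (dnajb1a and hspb15), against 2.65% of all genes, and 1 had every library above (dnajc7), against 2.8%.

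2 class C genes were called over the 4 groups. dnajc2, a DnaJ protein that works at the ribosome, was 8.75 to 9.55 CPM in the control and 27.0, 22.1 and 12.4 CPM at 0.1 µg/L. dnajc8, found with splicing factors in human cells, was 38.7 to 49.1 CPM in the control and 129.9, 105 and 49.6 CPM at 0.1 µg/L. All 3 libraries at 0.1 µg/L lay above every control in both genes, with libraries 1 and 2 far above library 3. The log2 fold changes at 0.1 µg/L were 1.145 ± 0.254 and 1.14 ± 0.249, with an adjusted p of 0.0858 for each in edgeR. Without libraries 1 and 2 they were 0.45 and 0.23, and the adjusted p over the 4 groups went from 0.0467 and 0.04999 to 0.932 and 0.906. The gene group had 4 members with every library at 0.1 µg/L above every control, against 3.57% of all genes, and 1 below, against 5.16%.

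The CCT chaperonin was high in the same 2 libraries. cct4 was 492, 541, 422 and 338 CPM in the control and 1462, 1122 and 459 CPM at 0.1 µg/L. It was 443 to 676 CPM at 1 µg/L and 299.9 to 633 CPM at 10 µg/L, so libraries 1 and 2 at 0.1 µg/L stood above all others and library 3 within the control range. The longer cct2 record was 213 to 281 CPM in the control and 837, 593 and 248 CPM at 0.1 µg/L, the same pattern. Its log2 fold change at 0.1 µg/L was 1.197, with an adjusted p of 0.0858 in edgeR. The 2 records named cct2 lie on opposite strands of chromosome 4 and may share reads. The summed CCT level was 1820 to 2907 CPM in the control, 6203, 4833 and 2510 CPM at 0.1 µg/L, 2325 to 3216 CPM at 1 µg/L and 1807 to 3378 CPM at 10 µg/L.

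In 8 of the 9 CCT records both of these libraries lay above all other 14 libraries, against 14.3% of all genes tested. cct7 was the exception. The 9 log2 fold changes at 0.1 µg/L were 0.45 to 1.197, with a median of 0.81 against -0.09 over all genes. Without libraries 1 and 2 the median was 0.07, against -0.005 over all genes. With all libraries, 8 of the 9 had an unadjusted p below 0.05, against 21.8% of all genes. None was called by edgeR, and DESeq2 called cct3, cct4, cct5, cct6a, cct8 and the longer cct2 record, against 7.5% of all genes. The log2 fold change of cct4 was 1.18 ± 0.317 with an adjusted p of 0.0864 in edgeR, and 0.06 without libraries 1 and 2. Without library 3 instead, 31 of the 97 genes and 32.0% of all genes were called at 0.1 µg/L. Scaling by total count alone moved the median of all genes at 0.1 µg/L by -0.41. hspa8 followed the CCT records, with 1027, 492 and 233 CPM at 0.1 µg/L and a log2 fold change of 0.99 ± 0.343 that became -0.31 without libraries 1 and 2. The marker sums that were high in the same libraries are given above, and their part in the CCT result was not tested. At 10 µg/L the median of the CCT records was -0.01, with library 4 the highest and library 3 the lowest in most subunits.

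**Figure D5:**
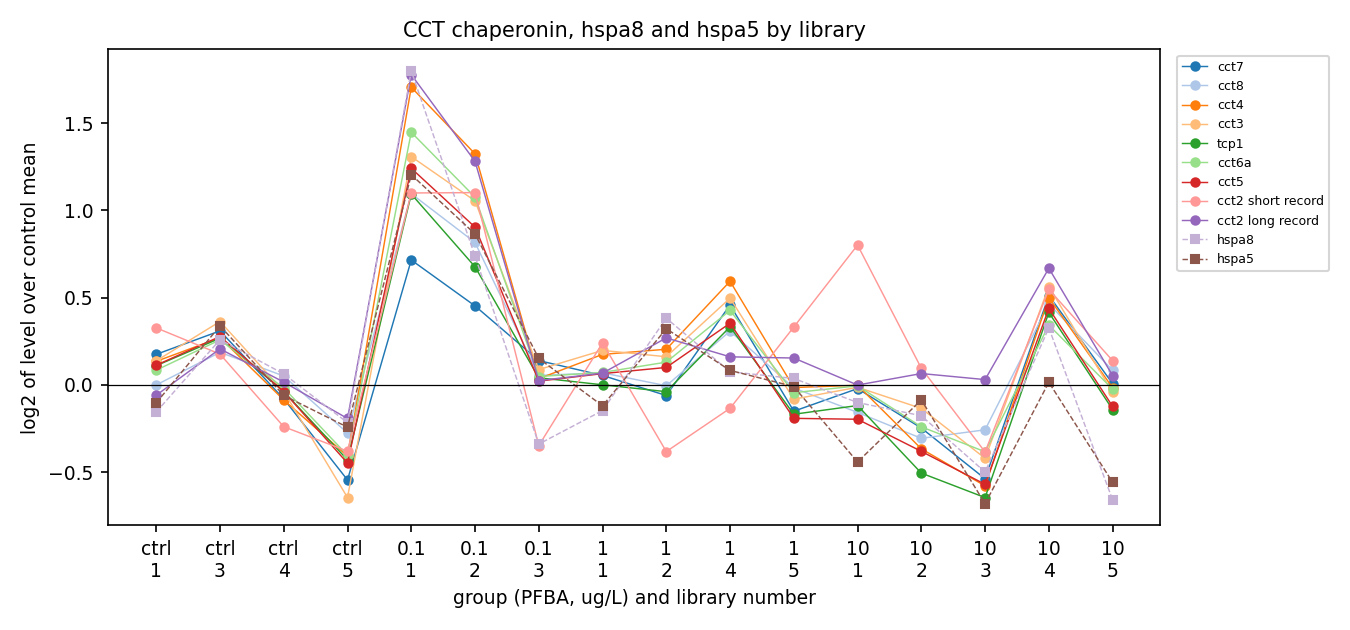
CCT records, hspa8 and hspa5 by library. The x axis gives the group and library number, the y axis is the log2 of a library's level over the mean of the 4 controls, circles are CCT records and squares are hspa8 and hspa5. In cct4 libraries 1 and 2 at 0.1 µg/L reach 1462 and 1122 CPM, and library 3 at that dose has 459 CPM.

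The mitochondrial chaperonin genes hspd1 (Hsp60) and hspe1 (Hsp10) are neighbours on chromosome 9. hspd1 was 52.1 to 87.1 CPM in the control and 37.5 to 76.2 CPM at 10 µg/L. hspe1 was 34.1 to 47.8 CPM in the control and 25.9 to 40.5 CPM at 10 µg/L. Both overlapped the control and neither was called at any dose. Of the BAG and Hsp90 co-chaperone genes, 0 of 10 were called at any dose. bag3, which links Hsp70 to small heat shock proteins and autophagy in muscle, was 10.0 to 17.1 CPM in the control and 5.90 to 12.3 CPM at 10 µg/L. stip1, the Hsp70-Hsp90 adaptor, was 58.2 to 81.9 and 56.1 to 75.3 CPM. ahsa1a, an activator of the Hsp90 ATPase, was a low gene with 1.08 to 2.63 CPM in the control and 0.393 to 1.26 CPM at 10 µg/L, a log2 fold change of -1.49 ± 0.555 with an adjusted p of 0.417 in edgeR.

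Over the 97 genes together, the median log2 fold change at 10 µg/L was -0.10, against -0.02 over all genes, with 57 genes below 0 and 40 above. 10 had an unadjusted p below 0.05 with a lower level, against 4.65% of all genes, and 2 with a higher level, against 3.58%. At 1 µg/L the median was 0.04, against -0.02 over all genes.

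Hsp90, its partners and other chaperone-related genes outside the name rule gave 43 tested genes. hsph1, hyou1 and cryaa, named above, were among them. 2 of the 43 were called at 10 µg/L and both fell, against 0.225% of all genes. hsp90aa1.2, an inducible cytosolic Hsp90, was 141 to 193 CPM in the control and 43.3 to 65.1 CPM at 10 µg/L, with a log2 fold change of -1.68 ± 0.183 and an adjusted p of 0.000936 in edgeR. fkbp4, an Hsp90 co-chaperone of steroid receptors, had a log2 fold change of -0.88 ± 0.173 and an adjusted p of 0.0456. In library 5 at 1 µg/L hsp90aa1.2 was 132 CPM, against 70.5 to 79.4 CPM in the other 3. Library 5 stood apart in hsf2 too, but there it lay within the control range, and in hsp90aa1.2 below every control. 0 of the 43 were called in edgeR at 1 or 0.1 µg/L. With an unadjusted p below 0.05, 6 were lower and 4 higher at 10 µg/L, against 4.65% and 3.58% of all genes. At 1 µg/L 4 were lower and 6 higher, against 2.97% and 1.92%. The counts at 0.1 µg/L were 2 lower and 13 higher, against 9.59% and 12.2%, and 0 of the 43 had such a p without libraries 1 and 2. Over the 4 groups 7 were called, against 2.34% of all genes, and 2 without those libraries, hsp90aa1.2 and fkbp4. The ER Hsp90 hsp90b1 was 124, 97.3 and 61.3 CPM at 0.1 µg/L, the kinase-specific Hsp90 partner cdc37 was 47.2, 46.3 and 19.0 CPM, and the prefoldin subunit pfdn4, which hands actin and tubulin to CCT, was 99.0, 77.7 and 33.8 CPM. In these 3 genes libraries 1 and 2 were above library 3, and the adjusted p over the 4 groups was 0.0371, 0.0464 and 0.0115 in edgeR and 0.891, 0.962 and 0.733 without them.

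In the authors' deposited table for 10 µg/L, 4 of the 103 genes had an adjusted p below 0.05, against 1.53% of all genes listed. They were hsf2, hspb6 and hspa4a, with log2 fold changes of -1.25, -1.97 and -0.84 in the authors' deposited table, and dnajb12b, with 0.70. At 0.1 µg/L the authors' deposited table listed 1 gene of the group, dnajc2, with 1.21, against 0.28% of all genes, and at 1 µg/L it listed 0, against 0.443%.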

How the data were processed

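RNA from whole larvae was sequenced as poly(A)-selected directional libraries, per the labels' protocols. Per the submitters' processing notes, the build was GRCz11 and the tools included HISAT2, featureCounts, fastp and DESeq2. Tool versions and the strand setting of counting: not given in the sources used here. Reads of overlapping or antisense genes may therefore not be told apart. Each of 3 deposited tables holds raw counts per gene for 1 dose and the 4 controls. Per the file headers the same tables hold 48 further columns of FPKM and normalized values, and group means of the normalized signal, which the authors deposited and which are not used here. The log2 fold changes and p-values of the authors' deposited tables are printed only where they are named as such.

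Joining the tables on gene identifiers gave 26183 genes, 24560 of them present in all 3, and 10528 missing cells were set to 0. Columns of the control and of 1 µg/L carry numbers that differ from the sample titles, so they were assigned to their group only. No 2 libraries were duplicates: the closest pair correlated at 0.9751 on log2 CPM (prior count 2) and had a chi-square of 8.94 for each degree of freedom. Counts were tested in R 4.3.3 with edgeR 4.0.16 (filterByExpr, TMM, robust quasi-likelihood fit of all 16 libraries, 12 residual degrees of freedom), with Benjamini-Hochberg adjustment over 19092 genes, and levels in CPM use the same scaling. Standard errors were taken from the fold change and its F value. Alternatives used DESeq2 1.42.0, limma 3.58.1 (voom), other scalings, no filter, the compared groups alone, a block on the column number and left-out libraries. The fit was tested on simulated data with the same dispersion for every gene and no deviating libraries, so the test does not cover libraries that deviate. Depth was 9708464 to 13862232 counts per library, and a level of 0 CPM allows up to 0.208 to 0.373 CPM, the level of 3 counts in a library, for counting error only.

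The members and all gene and marker lists were chosen with earlier results of these data known. Members called in any test, the 3 members with the lowest p at each dose (mean of at least 2 CPM) and those with an unadjusted p below 0.05 at 10 µg/L were given statistics. The design set full statistics for further index members. Some of these were given by their own values, and the rest only within the counts or medians of their role.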

Additional observations from a re-analysis of the deposited data

Results flagged for a closer look

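In 153 groups of 4 or 5 libraries, 10 had 1 library far from the others of its group by Dixon's test. Chance flags about 1 in 20 groups, so 10 of 153 is near the number that chance gives. The groups came from 51 members given statistics or listed by the design, and the share over all genes is not given here. At 1 µg/L hsf2 was 101.5 CPM in library 5, against 42.8 to 44.3 CPM in the other 3, the division described in the report for nr1d1. hsp70l was 8.50 CPM in library 2 at 1 µg/L, against 5.89 to 6.28 CPM. In library 4 at 1 µg/L, bag2 was 2.15 CPM, against 0 to 0.233 CPM, and hspb8 was 2.23 CPM, against 0.388 to 0.661 CPM. At 10 µg/L bag2 was 0 CPM in library 3, which allows up to 0.295 CPM, against 0.778 to 0.990 CPM.

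Library 4 at 10 µg/L accounted for 5 of the 10. There the longer cct2 record (ENSDARG00000104674) was 387.6 CPM, against 243.7 to 255 CPM in the other 4. dnajc7 was 174.6 CPM, against 138 to 146 CPM, and stip1 was 75.3 CPM, against 56.1 to 61.4 CPM. hspe1 was 40.5 CPM, against 25.9 to 29.3 CPM, and ahsa1a was 1.26 CPM, against 0.393 to 0.620 CPM. The same library had the lowest TMM factor outside 0.1 µg/L, 0.928, and the highest skeletal muscle sum of its group, 21788 CPM, and the part of these in the 5 values was not tested.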

How the results depend on the processing

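With 1 member called at 10 µg/L in the fit reported, library size alone gave 2 (0.189% of all genes), no filter 2 (0.149%), DESeq2 3 (1.3%) and leaving out libraries 1 and 2 at 0.1 µg/L 2 (0.392%). For the 4 groups, reported as 6, library size alone gave 0 (0.267% of all genes), no filter 10 (2.45%), DESeq2 20 (12.5%), limma-voom 3 (1.21%) and the fit without libraries 1 and 2 at 0.1 µg/L 0 (0.176%). For the trend, reported as 1, library size alone gave 2 (0.246%), DESeq2 4 (2.4%) and the fit without those libraries 3 (0.871%). At 0.1 µg/L, reported as 0, DESeq2 gave 13 (7.5%). Leaving out 1 library at a time gave 0 to 3 members at 10 µg/L, 0 to 1 at 1 µg/L (1 without library 5 of that dose), 0 to 31 at 0.1 µg/L and 0 to 33 over the 4 groups (31 and 33 without library 3 at 0.1 µg/L), and 0 to 2 in the trend. The 4-group count was 12 without library 4 and 0 without library 2 at 10 µg/L. The cause of these differences was not tested.

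Libraries with the same column number were not more alike across groups by the median. The 18 same-numbered pairs had a median correlation of deviations of -0.102, from -0.441 to 0.448, with 5 over 0.1. The 77 other pairs had a median of 0.015, with 28 over 0.1. A weak effect shared by equal column numbers could be missed by this measure. A fit with the replicate block on these numbers called 0 members at 10 µg/L, 0 at 1 µg/L, 0 at 0.1 µg/L, 1 over the 4 groups (hsf2) and 0 in the trend, and hsf2 at 10 µg/L had an adjusted p of 0.0564 there.

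Some log2 fold changes of genes that were not called changed sign. At 0.1 µg/L, hspa8 was -0.31 and hsf2 -0.0685 without libraries 1 and 2, and hsf2 was -0.31 and hspa4a -0.14 with library size alone. hspa5 at 1 µg/L was -0.0366 with the replicate block, and -0.0134 (without library 2 of that dose) to 0.211 with 1 library left out. At 10 µg/L the medians of the cytosolic Hsp70, Hsp110 and small heat shock genes of the name rule stayed below 0 in all 24 alternatives. They were -0.89 to -0.39, -0.98 to -0.74 and -0.70 to -0.16. The median of the CCT records at 0.1 µg/L stayed above 0, at 0.07 to 1.1005, and at 10 µg/L it changed sign in 10 of 24. With 3 to 5 libraries a group, the differences of hspa4l and dnajb1a at 10 µg/L from the control were not called in any of the 24 alternatives, although DESeq2's dose trend called dnajb1a.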
